A study of Mus musculus with 502 samples.

Results

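The regions described here are stretches of the human genome that were listed as silencers in K562 and in LNCap cells but not in 293T cells. They were found by pooling the 3 deposited silencer lists on chromosomes 1 to 22, joining silencers that overlapped by at least 1 bp, and keeping each joined region that held silencers of K562 and LNCap and none of 293T. This gave 17947 of 350588 joined regions, 5.12% of all. They are called shared K562 and LNCap regions below, and bear on the study's question of how far silencers act in a cell-specific manner. They held 18827 of the 128489 K562 silencers (14.7%, 95% Wilson interval 14.5 to 14.8) and 18874 of the 131664 LNCap silencers (14.3%, interval 14.1 to 14.5). The regions were chosen by measured values, namely presence in the lists and so an activity score of at least 2 in K562 and in LNCap, and these numbers describe that selection and carry no test.

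The assay, Ss-STARR-seq, clones random genomic fragments into a reporter plasmid, brings the plasmid pool into cells, and sequences both the pool itself (input DNA) and the transcripts that the cells make (output RNA). K562 cells come from a chronic myeloid leukaemia and have erythroid traits. LNCap cells come from a prostate carcinoma metastasis and respond to androgen. Human embryonic kidney cells gave rise to 293T, which also carries the SV40 large T antigen. The labels name no treatment, genotype change or time for any group, and describe the 3 lines as grown in DMEM with serum. They list 180 output RNA libraries of K562, 179 output RNA and 40 input DNA libraries of LNCap, and 102 output RNA libraries and 1 input DNA library of 293T. All 502 libraries are labelled as mouse, while the lines and the named build are human, and the lists hold chromosomes 20, 21 and 22; they were treated as human. Each line is represented by 1 list, so no difference below has a replicate check or a test across cultures. Intervals cover counting error only, and no read depth is known for any silencer.

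A silencer is a DNA element that lowers transcription from a promoter, the counterpart of an enhancer. Silencers work by recruiting repressor proteins, such as the neuronal gene repressor REST or the Polycomb complexes, and these in turn bring enzymes that deacetylate or methylate histones. The same element can repress in 1 cell type and be inactive, or even act as an enhancer, in another, because the set of bound factors differs. A plasmid assay reads the element outside its native chromatin, so it reports what the sequence can do with the factors of the transfected cell. The lists carry positions and scores but no sequence, and genes and bases at these positions were not analysed here.

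The score of a silencer is the authors' activity value, given with 1 decimal and never below 2; whether its scale is linear or logarithmic is not stated. The region with the highest score in its weaker line lay on chromosome 14 from 16055950 to 16056250. Its K562 silencer scored 8 and its LNCap silencer 7.3. A 100 bp K562 silencer lay inside a 300 bp LNCap silencer there, and the nearest 293T silencer was 2274451 bp away. That was the largest such gap of any shared region, where the median was 7325 bp. How uniquely reads map around this position was not examined. The next region, on chromosome 6 from 94949301 to 94949351, scored 6.7 in K562 and 6.8 in LNCap. Its boundaries were identical in both lists, and a 293T silencer lay 1051 bp away. On chromosome 11 from 776001 to 776151 the scores were 6.2 in K562 and 6.3 in LNCap. On chromosome 2 from 96978901 to 96978955 they were 5.8 and 7.3, from silencers shifted by a few bases against each other. On chromosome 16 from 75731921 to 75732281, 2 K562 silencers of up to 6.2 met 1 LNCap silencer of 5.7. In these 5 regions both lines were thus far above the medians of their lists, and the nearest 293T silencer was at least 1051 bp away.

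Such joint high scores were uncommon. Of the 17944 regions with finite scores in both lines, 992 (5.53%, interval 5.20 to 5.87) scored at least 3 in K562 and in LNCap. A further 4049 (22.6%) reached 3 in 1 line alone. At the low end, 3630 regions (20.2%) scored between 2 and 2.2 in both lines. Where a region held several silencers of a line, the highest was used.

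The scores of the lines rose together, but loosely. Across the 17944 regions the Spearman correlation between the K562 and the LNCap score was 0.27 and Pearson's r 0.31. Within single autosomes the Spearman correlation ran from 0.19 to 0.36 with a median of 0.27 (SD 0.04, n = 22), and it was above 0 on 22 of 22. With silencers limited to scores of at least 2.5 in all 3 lists, the rule gave 4076 shared regions, which can include positions whose weaker 293T silencer the limit removed, and the Spearman correlation was 0.17. These coefficients describe positions, which are not replicates, and the points may share windows and an input. They cover only regions that scored at least 2 in both lines, so they do not give the agreement of the lines over all positions. Regions with a K562 score of 2 to 2.1 had a median LNCap score of 2.3 (quartiles 2.1 and 2.6). At K562 scores of 4 and above, in 485 regions, the median LNCap score was 3 (quartiles 2.4 and 3.9). In the other direction, 4696 regions with a LNCap score of 2 to 2.1 had a median K562 score of 2.2, and the 780 regions at 4 and above had one of 2.8. A region that scored at least 3 in K562 did so in LNCap in 38.0% of cases (992 of 2612, interval 36.1 to 39.9), against 15.8% (interval 15.3 to 16.4) of regions under 3 in K562. Most regions with a high score in 1 line therefore did not have one in the other.

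**Figure D1:**
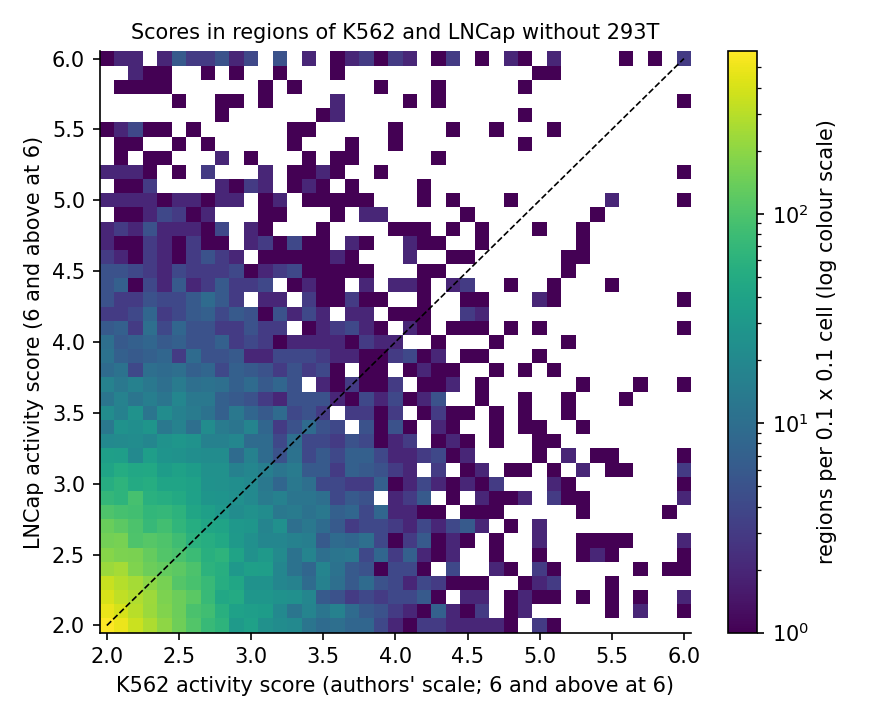
Activity scores of the 17944 shared K562 and LNCap regions with finite scores, K562 on the horizontal and LNCap on the vertical axis, with scores of 6 and above placed at 6; colour gives the number of regions per cell on a log scale, and the dashed line marks equal scores. The fullest cells lie at the lowest scores of both lines and the cloud spreads away from the diagonal, as the Spearman correlation of 0.27 describes.

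Scores differed by up to 0.5 in 12528 regions (69.8%), were equal in 1917 (10.7%) and were more than 1 apart in 2038 (11.4%). The LNCap score was the higher one in 8966 regions (49.97%) and the K562 score in 7061 (39.4%). This split cannot be read as stronger silencing in LNCap, because the scale of each list is unknown and the whole LNCap list also had more scores of at least 3 (11.6% of silencers, against 9.85% in K562).

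In the regions with the widest finite score gaps the weaker line scored between 2.1 and 5. Largest in favour of LNCap was a region on chromosome 4 from 24668535 to 24668616, with 10.6 in LNCap and 2.8 in K562. On chromosome 12 from 113053733 to 113053851 LNCap scored 7.8 and K562 2.1, and from 19365413 to 19365527 on the same chromosome LNCap scored 8.1 and K562 2.6. In favour of K562, a region on chromosome 8 from 105691136 to 105691521 reached 11.8 in K562, the highest finite score in these regions, and 5 in LNCap. Next came chromosome 4 from 106289707 to 106289851, with 7.7 in K562 and 2.1 in LNCap. A region from 177927171 to 177927271 on chromosome 4 had 8.1 in K562 and 2.9 in LNCap. In the region at 106289707, the K562 and LNCap silencers overlapped only at their ends, the first ending at 106289807 and the second starting at 106289801. Infinite scores occurred in 3 regions. On chromosome 6 from 90995213 to 90995375 LNCap was infinite beside a K562 score of 2.6. On chromosome 8, K562 was infinite from 35743665 to 35743765 beside a LNCap score of 3.7, and from 108127880 to 108127935 beside a LNCap score of 2. An infinite value was thus never matched by one in the other line.

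Silencers in the shared regions scored higher than silencers of the same list that no other list overlapped. In K562, 14.2% of the 18825 shared silencers with a finite score reached 3 (interval 13.7 to 14.7), against 8.88% of the 105466 found in K562 alone (interval 8.71 to 9.05) and 9.85% of the whole list. In LNCap the shares were 18.6% of 18873 (interval 18.04 to 19.15) and 10.1% of 108259 (interval 9.95 to 10.3), with 11.6% in the whole list. The shared silencers had the larger share on 22 of 22 autosomes in both lines. The mean difference over autosomes was 5.14 percentage points in K562 (SD 1.70, n = 22) and 8.55 points in LNCap (SD 1.90, n = 22). Medians moved little, from 2.2 to 2.3 in K562 and from 2.2 to 2.4 in LNCap, because most scores lie close to 2. Membership required a listed score in both lines, so this contrast uses the measure that chose the regions and was not tested.

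The difference in scores was also present at equal width. Exactly 50 bp was the most common width in both lists. Among silencers of that width, 17.6% of shared K562 silencers reached 3 against 9.28% of those in K562 alone. In LNCap it was 23.5% of shared silencers against 10.9%. Among silencers wider than 150 bp the shares were lower throughout, 8.36% against 5.46% in K562 and 11.0% against 5.43% in LNCap. Silencers that all 3 lists held had the highest shares, 18.2% in K562 (261 of 1436, interval 16.3 to 20.3) and 22.1% in LNCap (322 of 1460, interval 20.0 to 24.3).

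**Figure D2:**
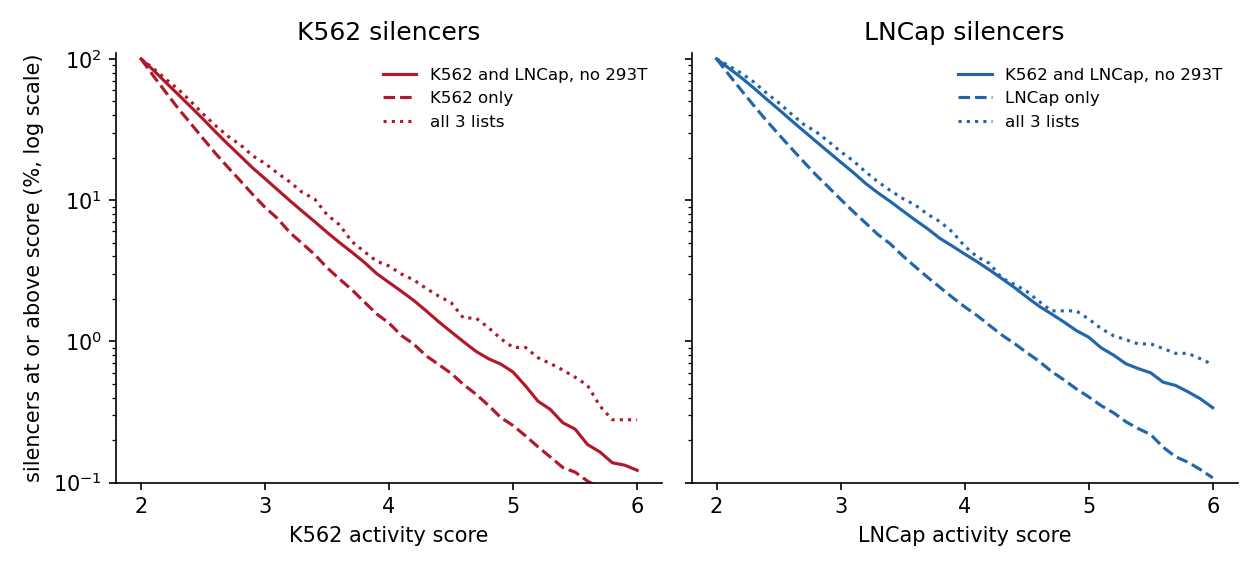
Share of silencers at or above each activity score, on a log scale, for K562 silencers (left) and LNCap silencers (right). Solid lines are the regions of K562 and LNCap without 293T, dashed lines silencers in 1 list alone, and dotted lines regions of all 3 lists; at a score of 3 the solid lines stand at 14.2% and 18.6% and the dashed ones at 8.88% and 10.1%.

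Read from the side of the lists, the share of silencers in a shared region went up with their width and, at a given width, with their score. Of K562 silencers of exactly 50 bp, 10.4% lay in a shared region (7876 of 75425, interval 10.2 to 10.7), of those wider than 150 bp and up to 300 bp 28.9%, and of those over 300 bp 46.0% (1369 of 2973, interval 44.3 to 47.8). LNCap gave 10.0%, 29.5% and 42.7% for the same widths. A wider silencer meets the rule of 1 bp more easily, so width and sharing are linked by construction. Within the 50 bp class the share rose from 7.26% of K562 silencers scoring 2 to 2.1 (interval 6.97 to 7.56), through 17.2% at 3 to 3.9, to 20.7% at 4 and above (interval 18.58 to 22.97). For LNCap the same steps were 6.16%, 17.7% and 23.9% (interval 22.03 to 25.86 for the last).

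The positions of the lines were compared in the 16279 regions (90.7%) that held exactly 1 silencer of K562 and 1 of LNCap. Another 783 regions held 1 K562 and 2 LNCap silencers and 752 held 2 and 1. The boundaries were identical in 1395 single-pair regions (8.57%, interval 8.15 to 9.01). The start was the same in 2806 (17.2%) and the end in 2862 (17.6%), and 12006 (73.8%) shared neither. The silencer of LNCap lay inside that of K562 in 2530 regions (15.5%) and the reverse held in 2488 (15.3%). In 3520 regions (21.6%) the K562 silencer began and ended first, and in 3468 (21.3%) the LNCap silencer did. Neither line was displaced to 1 side, and the median start difference was 0 bp.

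The midpoints were nonetheless close. Their median distance was 30 bp; 11490 regions (70.6%) had midpoints within 50 bp, and 1464 (8.99%) had them more than 100 bp apart, up to 404 bp. The common stretch measured exactly 50 bp in 6748 regions (41.5%), less in 4826 (29.6%) and more in 4705 (28.9%), up to 600 bp. In 9291 regions (57.1%) the whole of the narrower silencer was covered. Start differences clustered at multiples of 50 bp: 2806 regions had a difference of 0, 887 a LNCap start 50 bp after the K562 start, and 814 one 50 bp before it. Where both silencers measured exactly 50 bp, 1066 of 3197 (33.3%, interval 31.7 to 35.0) had the same position, against 329 of 5524 (5.96%) where both were wider. The starts did not lie on 1 common grid of windows. Both starts fell on 0 or 1 modulo 50 in 4629 single-pair regions, and 1009 of these (21.8%) had identical boundaries. Where neither start fell there, 1732 of 5609 (30.9%, interval 29.7 to 32.1) still had the same offset modulo 50.

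**Figure D3:**
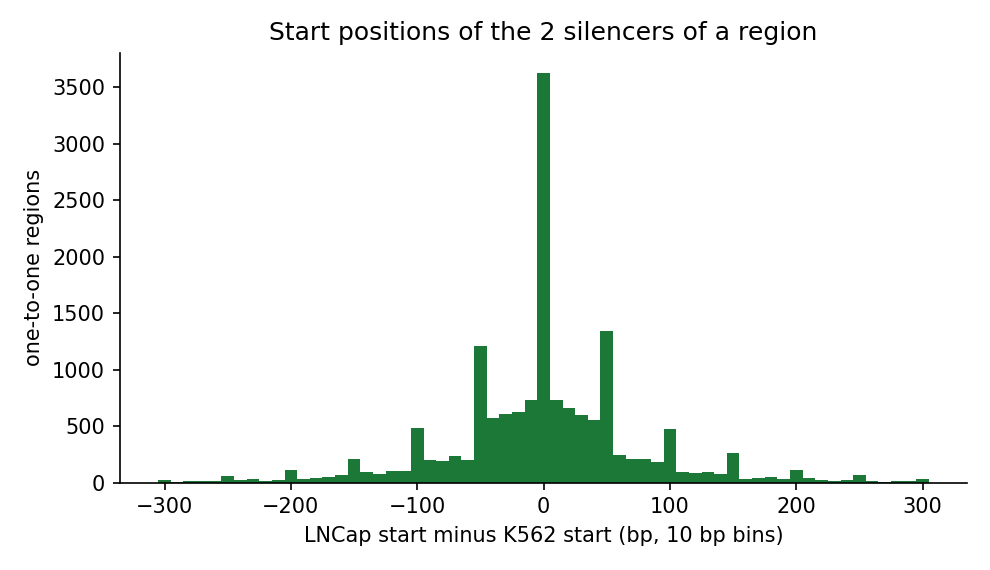
Difference between the LNCap and the K562 start in regions with 1 silencer of each line, in bins of 10 bp; bars count regions, and differences beyond 300 bp are not drawn. The tallest bar is at 0, and smaller peaks stand at steps of 50 bp on both sides, of like height left and right.

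Scores were more alike in rank where positions were closer. The Spearman correlation of the lines' scores was 0.40 in the regions with identical boundaries, 0.33 where midpoints lay within 25 bp (7530 regions) and 0.18 where they lay more than 100 bp apart (1464 regions). Where both silencers measured 50 bp it was 0.35, and where both were wider 0.31. Closeness and width were linked, as pairs with identical boundaries had a median width of 50 bp in both lines. The correlation by closeness was not computed at a fixed width. Widths themselves agreed poorly between the lines, with a Spearman correlation of 0.14 and a Pearson correlation of 0.22. The K562 silencer was wider in 6076 regions (37.3%) and the LNCap silencer in 5950 (36.6%).

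At the edge of the overlap rule, 408 single-pair regions overlapped by only 1 to 5 bp. Just outside it, 2631 K562-only regions had a LNCap silencer 0 to 5 bp away, and 2714 LNCap-only regions had a K562 silencer that near. Median scores were the same on both sides of the rule, 2.3 in K562 and 2.4 in LNCap. Silencers that touch without overlapping were not joined, and reading the end base as part of a silencer raised the number of shared regions from 17947 to 19804. Within 500 bp, 14.5% of K562-only regions had a LNCap silencer and 14.6% of LNCap-only regions had a K562 silencer, none of which counts as shared here.

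The joined regions had a median width of 151 bp (quartiles 100 and 258 bp) and covered 3.56 Mb. The median K562 silencer in them was 100 bp wide and that in K562-only regions 50 bp; 41.8% and 62.4% measured exactly 50 bp. For LNCap the medians were 100 bp and 50 bp, and 42.5% and 64.5% measured exactly 50 bp. The widest region lay on chromosome 21 from 10683851 to 10685401 and spanned 1550 bp. It joined 1 K562 silencer with 3 LNCap silencers, with scores of 2 in K562 and up to 2.1 in LNCap, so the greatest width came with scores at the bottom of the range. The next, on chromosome 7 from 16398301 to 16399601 (1300 bp), likewise joined 1 K562 with 3 LNCap silencers and scored 3.2 in K562 and up to 2.7 in LNCap. On chromosome 12 from 133202643 to 133203901, a LNCap silencer of 1258 bp that scored 2.6 contained a K562 silencer of 50 bp that scored 2. No region held more than 5 silencers, and 6 held that many. Among them were chromosome 4 from 135615701 to 135616251, where 2 K562 silencers of up to 5.1 faced 3 LNCap silencers of up to 3.1, and chromosome 5 from 27831554 to 27832201, with 1 K562 silencer of 2.2 and 4 LNCap silencers of up to 2.9. The reverse split occurred on chromosome 10 from 19643239 to 19643683, where 4 K562 silencers of up to 2.7 lay under 1 LNCap silencer of 2.5.

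Absence from the 293T list is the rule, and the distance to the nearest 293T silencer describes how close other 293T silencers lay. It cannot show whether a 293T silencer was missed at the region itself. The median gap was 7325 bp (quartiles 2676.5 and 16003 bp). A 293T silencer lay within 500 bp of 1317 regions (7.34%, interval 6.97 to 7.73) and within 1000 bp of 2129 (11.9%, interval 11.4 to 12.3), against 11.4% of all regions without 293T. Regions found in K562 alone had 11.2% within 1000 bp and those found in LNCap alone 11.5%. The shared regions were thus about as far from 293T silencers as the regions of a single line, with median gaps of 7550 bp for K562 alone and 7600 bp for LNCap alone. The 1317 regions with a 293T silencer within 500 bp had median scores of 2.4 in K562 and 2.4 in LNCap. The 10935 regions more than 5000 bp away had 2.3 and 2.4, and both lines reached 3 in 6.68% of the near and 5.44% of the far regions.

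**Figure D4:**
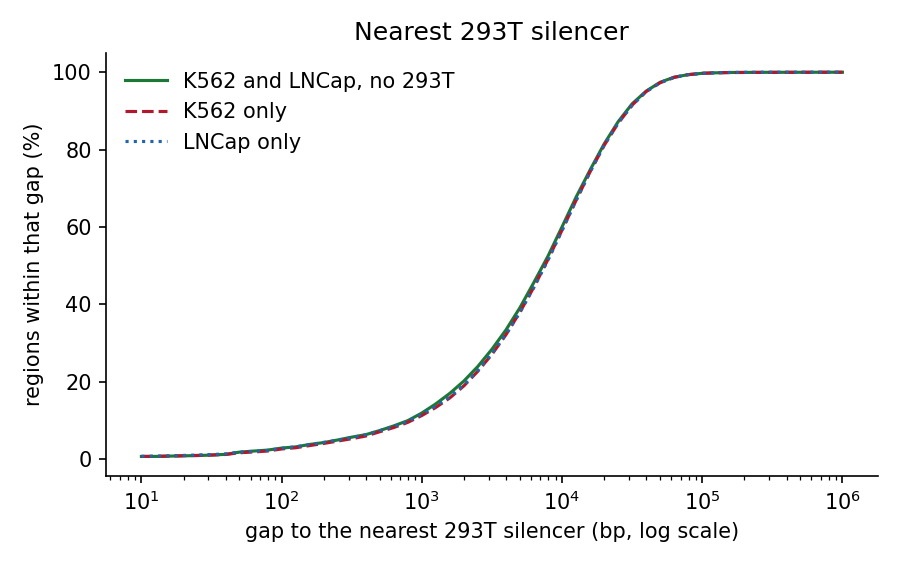
Share of regions whose nearest 293T silencer lies within a given gap, with the gap in bp on a log scale, for regions of K562 and LNCap without 293T (solid), K562 alone (dashed) and LNCap alone (dotted). The curves nearly coincide, with 11.9%, 11.2% and 11.5% at 1000 bp.

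At the edge of this rule, 93 shared regions had a 293T silencer 0 to 5 bp away, 69 of them directly adjoining. On chromosome 1 the region from 9712301 to 9712401 (2.5 in K562, 2.6 in LNCap) adjoined a 293T silencer, as did those from 9830451 to 9830601 (2.3 and 2.2) and from 36039751 to 36039951 (2.9 and 2). Just across the rule, 20 regions of all 3 lists owed their place to at most 5 bp of 293T overlap, such as those on chromosome 3 from 21946301 to 21946501 and from 65822440 to 65822801 and on chromosome 11 from 86163821 to 86163976, each with 1 bp. Without replicate lists, a silencer missed in 293T and one inactive there cannot be told apart.

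Of all 19246 regions that K562 and LNCap held in common, 1299 were also overlapped by 293T, 6.75% (interval 6.40 to 7.11), and so are not among the shared regions. That share was 5.74% (interval 5.28 to 6.24) where the weaker of the K562 and LNCap scores was 2 to 2.1 and 8.39% (interval 6.89 to 10.2) where it was at least 3. It also rose with the stretch the 2 silencers spanned, from 3.13% at up to 100 bp to 10.9% above 250 bp. In the shortest class it was 2.28% at the lowest scores (interval 1.77 to 2.95) and 5.29% at scores of at least 3 (23 of 435, interval 3.55 to 7.81). Most regions of K562 without LNCap, and of LNCap without K562, were absent from the 293T list too. K562 alone held 105494 regions and K562 with 293T 2675. LNCap alone held 108270 and LNCap with 293T 2976. In each case the part that 293T overlapped was smaller than the 6.75% of regions that K562 and LNCap held in common. Regions found in a single line were also narrower than the shared regions, and these parts were not compared at equal width. Most jointly high-scoring regions were likewise absent from the 293T list at every width, 412 of those 435 in the shortest class.

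On chromosomes, the shared regions were densest on chromosome 19 with 14.8 per Mb (870 regions, exact Poisson interval 13.9 to 15.9). Chromosome 17 followed with 9.56 per Mb (interval 8.91 to 10.3) and chromosome 20 with 8.01 (interval 7.33 to 8.73). These densities divide by the highest listed end on a chromosome, unassembled stretches included, such as most of the short arm of chromosome 21. On that scale chromosome 21 was lowest with 4.63 per Mb (interval 4.03 to 5.29), and the median autosome had 5.93. The whole lists are dense on chromosome 19 as well, with 87.7 K562 and 93.7 LNCap silencers per Mb. A share of the list allows for the density of that list but not for that of the other. Over the 22 autosomes, regions per Mb and the K562 share had a Spearman correlation of 0.40. The highest shares were on chromosome 22, where 19.2% of K562 silencers (interval 17.486 to 20.998) and 18.3% of LNCap silencers (interval 16.7 to 20.0) lay in shared regions. Chromosomes 19 and 20 came next, with 18.1% and 17.3% of K562 and 16.7% and 16.1% of LNCap silencers. Lowest were chromosomes 18, 3 and 5 in K562, with 13.1%, 13.3% and 13.6%, and chromosomes 5, 3 and 16 in LNCap, with 13.2%, 13.3% and 13.4%. Intervals of neighbouring chromosomes overlap in most of this range. The density of 293T silencers was low on chromosome 22 (25.5 per Mb) and high on chromosome 19 (58.2 per Mb). On each of these chromosomes, as on most autosomes, it lay below that of K562 silencers (37.98 and 87.7 per Mb). On chromosomes 18 and 3, with the lowest K562 shares, 293T had 48.5 and 45.6 per Mb and K562 50.9 and 44.9. Chromosome 16 also had a low share, but fewer 293T (33.8 per Mb) than K562 silencers (40.3 per Mb). Whether the share follows the 293T density relative to that of K562 was not tested. Median scores hardly varied, at 2.3 or 2.4 for K562 and for LNCap on every autosome.

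**Figure D5:**
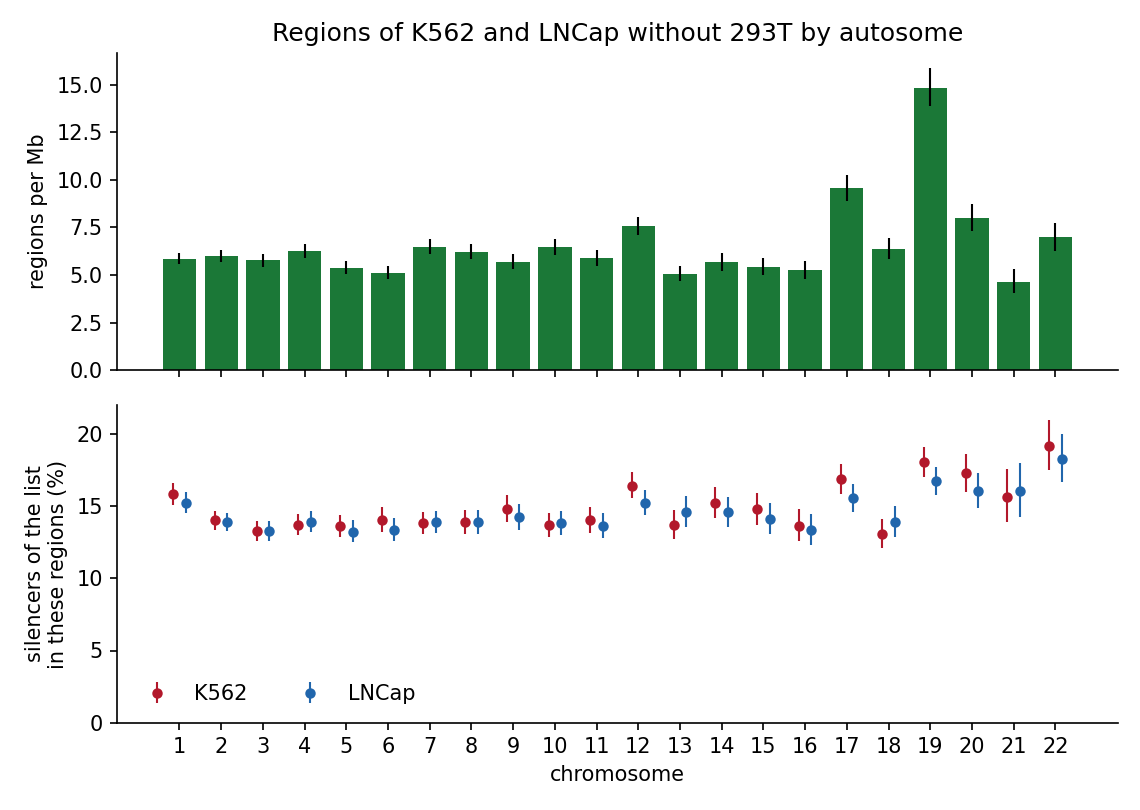
Regions of K562 and LNCap without 293T by autosome: above, regions per Mb with exact Poisson 95% intervals; below, the share of each list's silencers that lie in these regions, with Wilson 95% intervals. Chromosome 19 has the tallest bar (14.8 per Mb), and chromosome 22 the highest share in K562 (19.2%) and in LNCap (18.3%).

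In bins of 1 Mb, 2679 of 2762 bins (97.0%) held at least 1 shared region, with a median of 6 and quartiles of 3 and 8. The fullest bin was on chromosome 21 from 10 to 11 Mb, beside the centromere, with 37 shared regions. There 44.6% of the 101 K562 silencers and 46.3% of the 95 LNCap silencers were in shared regions, while 293T had 42 silencers. Median scores in that bin were low, 2.2 in K562 and 2.3 in LNCap, and only 2 shared regions remained when silencers had to score 2.5. With every silencer set to 50 bp around its midpoint, 12 shared regions were left in it. The bin on chromosome 10 from 38 to 39 Mb, also beside a centromere, held 35 shared regions. Its median scores were high, 2.6 in K562 and 2.8 in LNCap, and it had 104 silencers in 293T. On chromosome 19 the bins from 4 to 5 Mb and from 12 to 13 Mb held 32 each, with 25.9% and 28.8% of their K562 silencers and 18.4% and 20.6% of their LNCap silencers in shared regions. Chromosome 20 from 31 to 32 Mb held 31, at median scores of 2.5 and 2.6. How uniquely reads map in these bins was not examined.

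Bins with more 293T silencers also held more shared regions, 3.91 per bin in the 20% of bins with the fewest 293T silencers and 9.58 in the 20% with the most. The share of K562 silencers in shared regions was nearly level over the 5 classes of bins made this way, from 14.2% to 15.0%, and that of LNCap silencers ran from 13.8% to 14.9%. Across bins, the number of shared regions had a Spearman correlation of 0.44 with the number of 293T silencers, 0.74 with that of K562 and 0.76 with that of LNCap; the last 2 include the shared silencers themselves. At the scale of 1 Mb bins, the shared regions were therefore not gathered where 293T silencers were fewest. The lowest class took in bins with 0 to 30 293T silencers, and bins without any were not examined on their own.

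Shared regions rarely adjoined each other. The median gap between neighbours was 81475 bp, and 524 of 17925 gaps (2.92%) were at most 500 bp. Joining at that distance left 17423 groups, of which 510 held more than 1 shared region and 13 held 3 or more. The largest, chosen after its size was seen, lay on chromosome 20 from 11808455 to 11809795. It held 4 shared regions with 4 K562 and 4 LNCap silencers of up to 3.1 and 2.9, and the nearest 293T silencer was 4054 bp away. Silencers of a single line were common nearby. Another K562 or LNCap region of any kind lay within 500 bp of 6994 shared regions (39.0%, interval 38.3 to 39.7), against 32.3% of K562-only and 34.0% of LNCap-only regions. Among regions of up to 100 bp the values were 43.7% (interval 42.4 to 45.0), 32.8% and 34.4%.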

How the data were processed

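Per the file headers, each of the 3 lists gives a silencer's position and its activity, a score deposited by the authors with 1 decimal. Bowtie2, SAMtools and hg38 are named, without versions, per the submitters' processing notes. How silencers were called, against which input and from which pooled libraries is not stated in those sources. Lines with broken fields, an unknown chromosome or a width over 5000 bp were left out (58 of 125307 in 293T, 12 of 134171 in K562, 25 of 137753 in LNCap), then chromosomes 1 to 22 were kept. Positions are as deposited and were read as half-open, which is not stated. Infinite scores were kept for positions. Chromosome lengths are the highest listed end. Regions, bins and groups of regions were computed with scipy 1.17.1, pandas 2.3.3 and numpy 2.4.6 under Python 3.11.15, and drawn with matplotlib 3.10.9.

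The rule, score limit of 3, width classes and alternatives were chosen with earlier results of these data known. Named are the regions with the 5 highest weaker scores, the 3 widest score gaps each way, the 3 widest, 3 fullest (ties by position), infinite and nearest to the limits with 293T, the fullest bins (5), and the 3 extreme autosomes. With 1 list per line no test was run; medians, shares and correlations are descriptions. Merging was tested on simulated data, where 3000 of 3000 planted regions were recovered. The simulated silencers had equal widths and lay in well separated places, so chained or adjoining silencers were not covered. No human genome or annotation was used, so gene positions, promoters and sequences were not analysed here.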

Additional observations from a re-analysis of the deposited data

Results flagged for a closer look

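Chromosome X, outside the comparison on chromosomes 1 to 22, held such regions at about the autosomal share. There 819 of 16401 joined regions (4.99%, against 5.12% on chromosomes 1 to 22) held K562 and LNCap silencers and none of 293T. They took in 15.2% of the K562 and 14.3% of the LNCap silencers of chromosome X, at median scores of 2.3 and 2.4. On chromosomes 1 to 22 the shares were 14.7% and 14.3%.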

How the results depend on the processing

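The values below describe 10 measures under 9 other settings, 81 values in all; 30 stayed within counting error, the SD over autosomes or 1.5 times a count, 51 moved, and none changed sign. The score contrast between shared and single-line silencers kept its direction in the 8 settings it was computed under, and moved in size only under the score minimum. Some moves follow from the setting itself, such as the lower share near 293T once regions within 500 bp of it are left out. The causes of the other moves were not tested. The measures are given in this order: shared regions, percent of K562 and of LNCap silencers in them, Spearman correlation, K562 and LNCap percentage points at a score of 3 (shared minus single-line), percent with identical boundaries, percent within 1000 bp of 293T, regions per Mb on chromosome 19, and regions in the chromosome 21 bin from 10 to 11 Mb.

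With at least 2.5 in all lists, these 10 were 4076, 11.2%, 10.1%, 0.17, 10.9, 15.6, 10.1%, 5.84%, 3.79 and 2. With 2.5 asked of K562 and LNCap alone they were 3951, 10.9%, 9.74%, 0.17, 11.0, 16.02, 10.2%, 12.5%, 3.601 and 2. With starts at 0 or 1 modulo 50 only, the count was 5241, the shares 8.59% and 8.89%, Spearman correlation 0.33, identical boundaries 21.4%, nearness to 293T 7.73%, chromosome 19 at 3.72 and the bin at 20. With 50 bp around each midpoint, the count was 11626, the shares 9.05% and 8.83%, identical boundaries 16.3%, nearness 13.2%, chromosome 19 at 9.13 and the bin at 12. An overlap of 25 bp gave shares of 13.1% and 12.8%, identical boundaries 9.52%, nearness 12.4% and 13.1 per Mb on chromosome 19. Leaving out regions within 500 bp of 293T gave 13.6% and 13.3%, nearness 4.88% and 13.5 per Mb. Counting the end base gave 16.4% and 16.04%, identical boundaries 7.88% and 15.9 per Mb. Regions with 1 silencer of each line gave 12.7% and 12.4%, and 13.2 per Mb. Taking the mean in place of the highest score per line in a region, which was applied to the Spearman correlation alone, gave 0.28.

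No paired analysis was possible because each line has 1 list and no result comes from a test. No list has a replicate to leave out, and read depth is unknown.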
